A study of Mus musculus with 9 samples.

Results

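Chemokine genes and the genes of their receptors were examined in sorted mouse haematopoietic stem and progenitor cells. Members were taken by gene symbol: every row named Ccl, Cxcl, Ccr or Cxcr followed by a number, with or without a trailing letter, and the rows Xcl1, Xcr1, Cx3cl1 and Cx3cr1. The members reported are 56 of 24060 named genes, 39 ligands and 17 receptors. The cells were Lin-Sca1+Kit+ cells (LSKs), a marrow gate that holds stem cells and multipotent progenitors, and gene expression was measured by RNA-seq as read counts per gene. The study asked what MSI2, an RNA-binding protein, adds to LSKs that carry the NUP98-HOXD13 fusion, a mouse model of myelodysplastic syndrome.

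Donor marrow of C57BL/6 mice was transplanted into lethally irradiated CD45.1 recipients, which the design text says were then fed doxycycline, and donor-derived CD45.2 LSKs were sorted 3 months after induction began, with an age of 4 months in the labels. The Control group (3 libraries) carried neither transgene. The NHD13 group (2 libraries) carried the NUP98-HOXD13 fusion, whose transgene is driven by the Vav promoter of blood cells from early development on. The NHD13/MSI2 group (4 libraries) carried the fusion and a doxycycline-inducible MSI2 transgene. All 3 groups shared the transplantation and the irradiated host. The libraries are named below by their labels. The names of the Control libraries carry the words Bulk (replicate 1) and MPP_HSC (replicates 2 and 3), which the labels do not explain. The labels do not say which libraries came from separate mice, so p-values measure the spread between these libraries only, which may be in part technical.

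Library totals were 19242153 to 23013493 counts. Hoxd13, whose sequence is part of the fusion, had 0 counts in every Control library and 13 to 25 counts in each library labelled NHD13 or NHD13/MSI2. Counts of the mouse Msi2 row were no higher in NHD13/MSI2 (77.1 to 88.0 CPM in replicates 1 to 3 and 241 CPM in replicate 4, against 111 and 139 CPM in NHD13 and 223 to 316 CPM in Control), and whether reads of the transgene are counted in that row was not tested. Levels are given as CPM, counts scaled by library total and TMM factor. The LSK genes Kit and Ly6a, which encode markers of the gate, were read in all 9 libraries. Kit was at 1775 to 2254 CPM in Control, 1932 and 1121 CPM in NHD13 and 908 to 1402 CPM in NHD13/MSI2, and Ly6a at 79.3 to 89.8, 69.0 and 48.3, and 98.6 to 375 CPM. The summed level of 6 LSK genes was 4776 to 5225 CPM in Control, 3334 and 2975 CPM in NHD13 and 2823 to 3672 CPM in NHD13/MSI2. In NHD13/MSI2 over Control, 2 of the 6 (Cd34 and Flt3) fell at an adjusted p below 0.01 in edgeR. Of all tested genes, 6.55% did so. The gate genes Kit and Ly6a did not pass this threshold there. With the sex difference described below as a term, Cd34 (adjusted p = 0.059) and Flt3 (adjusted p = 0.0658) no longer passed it. In NHD13 over Control 1 of the 6 fell, where 1.03% of all tested genes were called, and with the term the lowest adjusted p of the 6 was 0.0764 (Cd34). The part of these 6 genes in the member values was not tested. Control replicates 1 and 3 had 888 and 866 CPM of Xist, the transcript of the inactive X chromosome, against 2.33 CPM or less in the other 7 libraries, so comparisons with Control also set female-like against male-like libraries, and values from a fit with this difference as a term are given beside the members that passed an adjusted p of 0.05. Replicate 4 of NHD13/MSI2 and the pair of NHD13 libraries stood apart: 2.69% of the 13355 tested genes differed by more than 2 on the log2(CPM + 1) scale within the NHD13 pair, and NHD13/MSI2 replicate 4 so differed from the other 3 in 2.22% to 2.73% of genes, against 0.15% to 0.352% among those 3 and 0.217% to 0.247% among the Control libraries.

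Chemokines are small secreted proteins that guide cells along their gradients, and they bind receptors of the seven-transmembrane, G protein-coupled kind. In the marrow, Cxcl12 from stromal cells holds stem cells in place through Cxcr4, while Cxcr2 ligands draw neutrophils out into the blood and Ccr2 ligands draw monocytes out. Ccl3, Ccl4, Ccl5, Ccl6 and Ccl9 are inflammatory ligands that draw in monocytes, macrophages and T cells.

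Of the 56 members, 40 had more than 3 counts in at least 1 library, among them all 17 receptors, and 8 ligands had 0 counts in all 9 libraries (Ccl11, Ccl20, Ccl21a, Ccl21b, Ccl21c, Ccl26, Ccl27b and Ccl28). The Ccl21 and Ccl27 genes have near-identical copies among which reads may be split or discarded, so their 0 values are uncertain. A count of 0 allows up to 3 counts, or 0.12 to 0.195 CPM in these libraries. More than 3 counts in every library of the group were found for 23 members in Control, 25 in NHD13 and 19 in NHD13/MSI2, and 15 members reached this in all 9 libraries. The filter on low counts left 29 members for testing, 15 ligands and 14 receptors. A gene can pass this filter through the group in which it is high, so the 29 tested members are not a neutral sample of the 56.

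**Figure D1:**
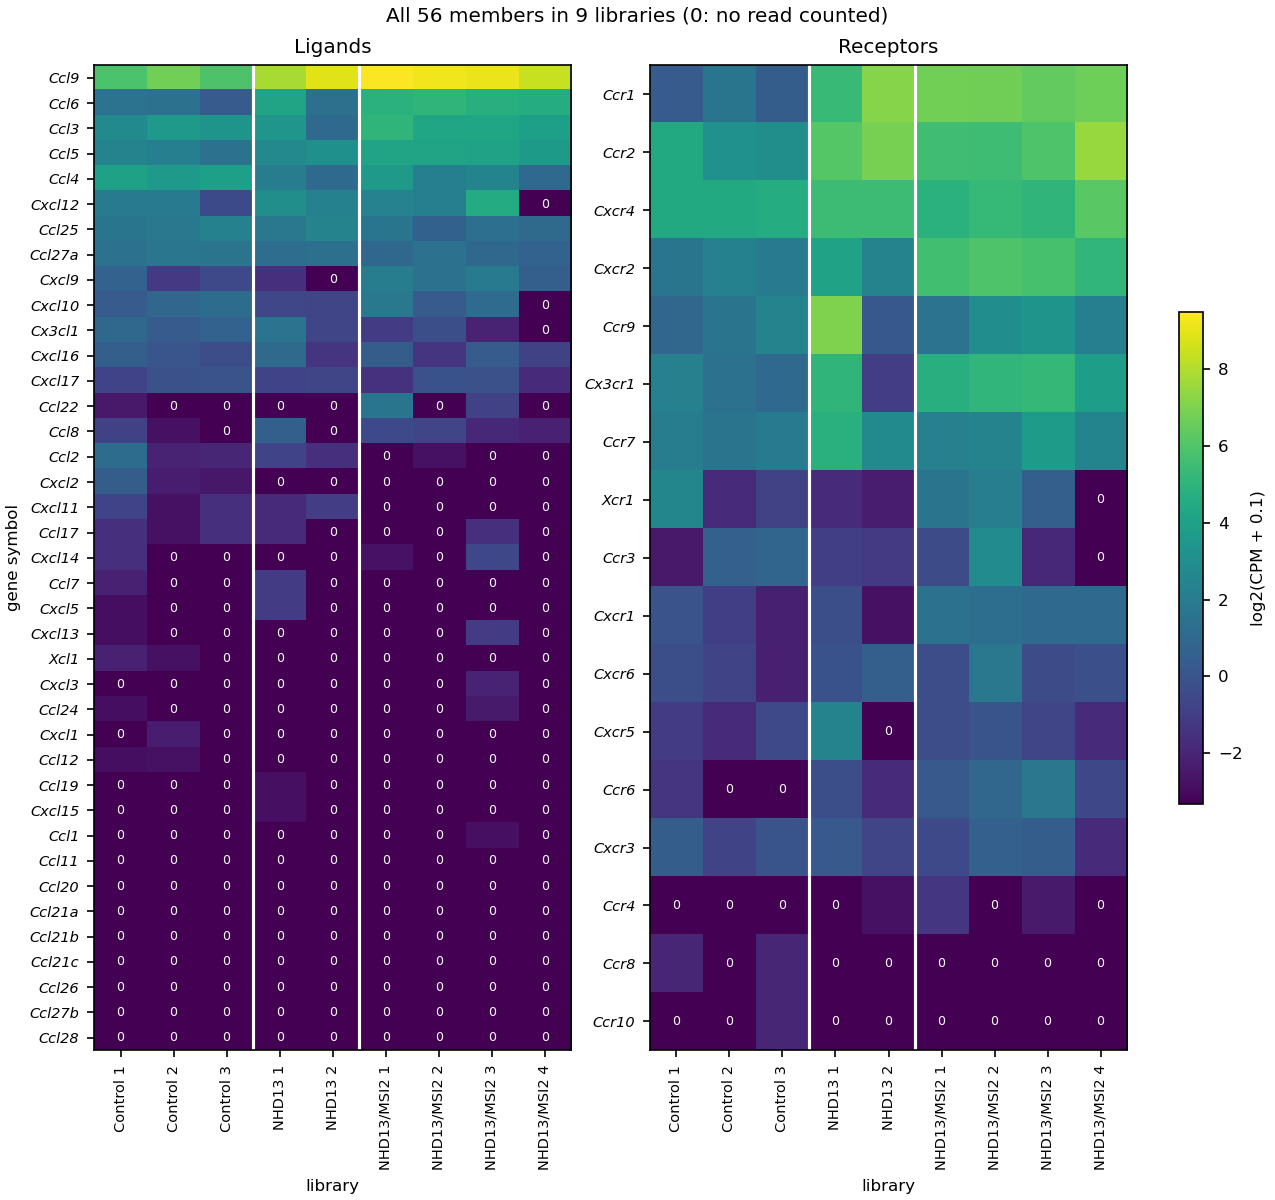
Level of each of the 56 members (rows) in each of the 9 libraries (columns), as log2(CPM + 0.1) in colour, with ligands on the left, receptors on the right and a printed 0 where no read was counted. Ccl9 is the brightest ligand in every library, and the receptors Ccr1, Ccr2 and Cxcr2 are brighter in every NHD13 and NHD13/MSI2 library than in Control.

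Compared per length of exons (CPM per kb), Ccl9 was the most abundant member in all 3 groups, at a mean of 25.2 CPM per kb in Control, 115 in NHD13 and 179 in NHD13/MSI2. In Control it was followed by Ccl4 (21.9 CPM per kb), Cxcr4 (12.5) and Ccl3 (12.4). In NHD13/MSI2 the next were Ccr1 (35.2 CPM per kb), Ccl3 (28.2) and Cxcr4 (24.2). Ccr1 was at 0.653 CPM per kb in Control, below Ccr2 at 1.94.

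In NHD13/MSI2 over Control the members that were called were all higher in the libraries labelled NHD13/MSI2. A member was called at an adjusted p below 0.01 in the quasi-likelihood test of edgeR, which is the source of every adjusted p below unless DESeq2 is named. The ligands Ccl5, Ccl6 and Ccl9 and the receptors Ccr1 and Cxcr2 rose, which is 5 of 29 tested members (17.2%), and 0 of 29 fell. Of all 13355 tested genes, 4.49% were called higher and 6.55% lower, 11% in all. In NHD13 over Control 1 of 29 members was called, Ccr1, which rose, against 1.03% of all tested genes. In NHD13/MSI2 over NHD13 0 of 29 members were called, against 3.17% of all tested genes. In NHD13/MSI2 over NHD13, 9 members had an unadjusted p below 0.05 (21.7% of all tested genes did). DESeq2 called 3 of the 29 members there, Ccl5, Cxcl9 and Cxcr2, all higher, and it called 9.63% of all tested genes. In edgeR, Cxcl9 and Cxcr2 passed an adjusted p of 0.05 in this comparison (8.81% of all tested genes did). At that looser threshold, 8 members were called in NHD13/MSI2 over Control (20.6% of all tested genes) and 2 in NHD13 over Control (2.89%), and 15 (32.8%) and 11 (13.5%) had an unadjusted p below 0.05.

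The libraries of 12 members lay above Control without overlap in NHD13/MSI2 and those of 5 below, where 15.3% and 20.4% of all tested genes did so. In NHD13 over Control these counts were 9 and 5, against 18.9% and 18.5%, and in NHD13/MSI2 over NHD13 they were 6 and 2, against 13% and 16.9%. The share of members higher without overlap was 41.4% in NHD13/MSI2 over Control, 31% in NHD13 over Control and 20.7% in NHD13/MSI2 over NHD13. The 12 members were Ccl3, Ccl5, Ccl6, Ccl9, Ccr1, Ccr2, Ccr6, Ccr7, Cx3cr1, Cxcr1, Cxcr2 and Cxcr4, and the 5 were Ccl2, Ccl4, Ccl25, Ccl27a and Cx3cl1.

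The median log2 fold change of the tested members was 1.01 in NHD13/MSI2 over Control, 0.85 in NHD13 over Control and 0.35 in NHD13/MSI2 over NHD13, while the median over all tested genes was -0.01, 0.02 and -0.03. The receptors lay higher than the ligands in both comparisons with Control, with medians of 1.31 and 1.85 for receptors and -0.02 and 0.16 for ligands. The 2 comparisons with Control share the same Control libraries, so their values are not independent of each other.

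**Figure D2:**
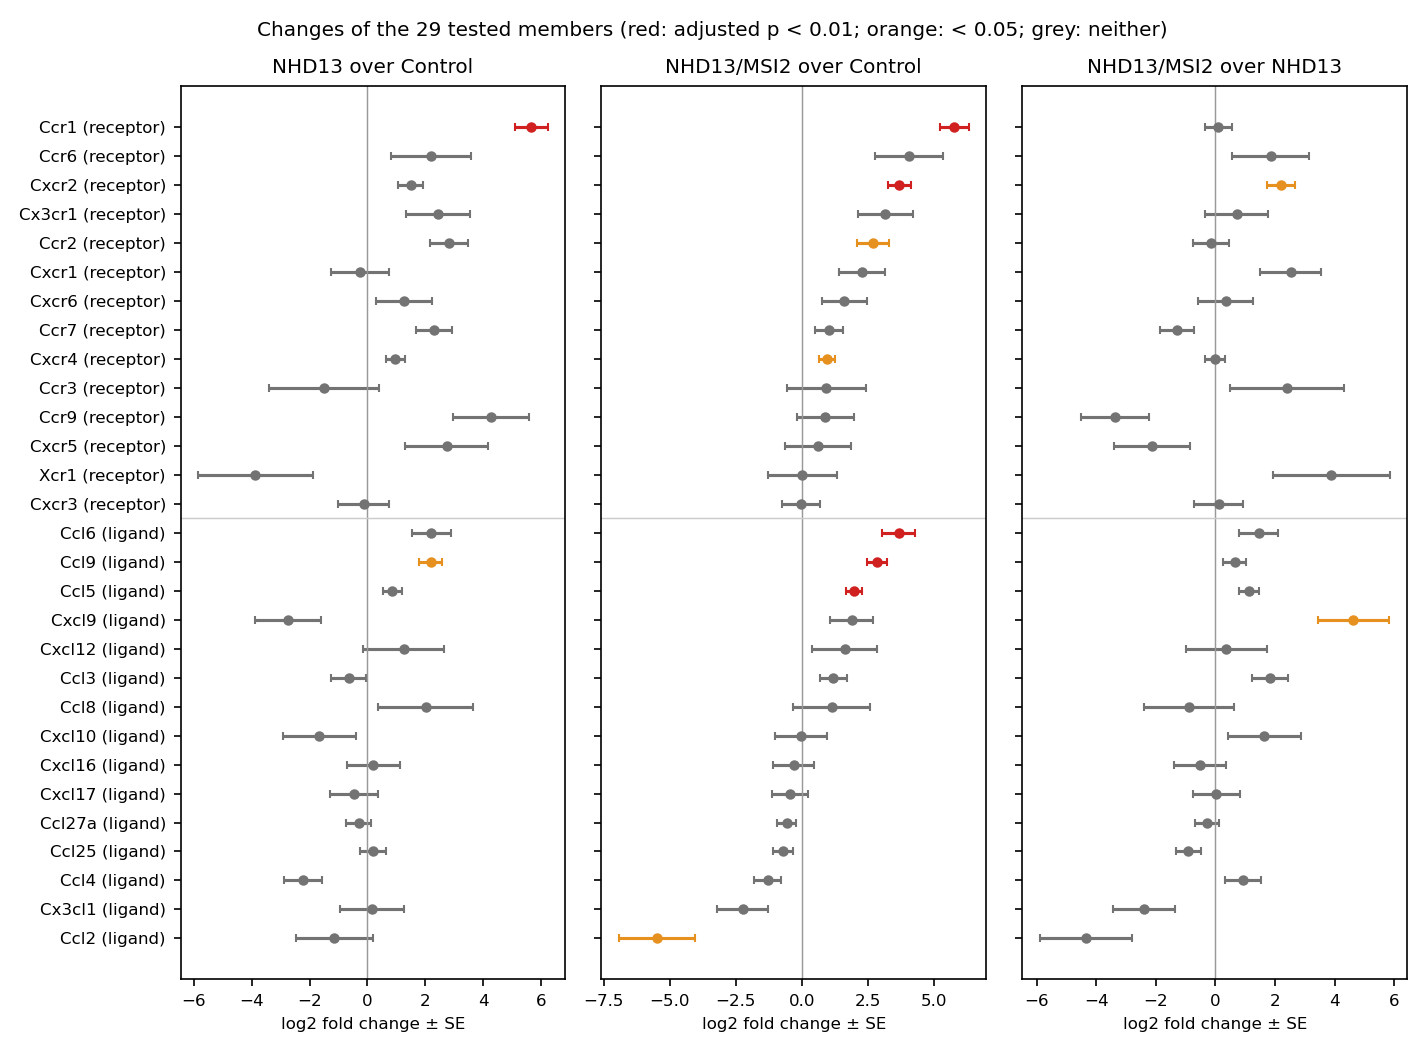
Log2 fold change of each tested member (rows, ligands below and receptors above the line) with its standard error, in NHD13 over Control, NHD13/MSI2 over Control and NHD13/MSI2 over NHD13; colour marks the adjusted p of edgeR's quasi-likelihood test. Red points are limited to Ccr1 in the left panel and to Ccl5, Ccl6, Ccl9, Ccr1 and Cxcr2 in the middle panel, and the right panel has none.

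Promoter sequences are shown for 4 of the 5 members that rose together in NHD13/MSI2 over Control, as RefSeq gives them on GRCm38.p6, ending at the base before the annotated start and written 5′ to 3′ on the strand of the gene. Capitals mark matches, on either strand, to the core sequence bound by PU.1, GAGGAA, to the RUNX motif TGTGGT or to an AP-1 pattern. The AP-1 pattern was TGANTCA, a loose form of the motif in which N is any base. PU.1 and RUNX are blood lineage factors and AP-1 responds to stimuli. The windows are Ccl9 at chr11:83578637-83578886 (minus strand), Ccl6 at chr11:83593088-83593337 (minus strand), Ccr1 at chr9:123968693-123968942 (minus strand) and Cxcr2 at chr1:74153744-74153993 (plus strand).
Ccl9: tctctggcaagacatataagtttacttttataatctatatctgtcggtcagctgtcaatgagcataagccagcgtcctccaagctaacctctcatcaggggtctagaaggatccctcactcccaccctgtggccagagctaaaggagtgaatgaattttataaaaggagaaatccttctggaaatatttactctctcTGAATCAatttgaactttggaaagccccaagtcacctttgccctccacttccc
Ccl6: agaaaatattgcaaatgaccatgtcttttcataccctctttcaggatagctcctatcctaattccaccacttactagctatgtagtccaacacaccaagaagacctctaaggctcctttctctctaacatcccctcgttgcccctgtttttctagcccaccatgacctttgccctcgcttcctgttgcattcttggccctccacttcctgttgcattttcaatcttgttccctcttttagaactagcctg
Ccr1: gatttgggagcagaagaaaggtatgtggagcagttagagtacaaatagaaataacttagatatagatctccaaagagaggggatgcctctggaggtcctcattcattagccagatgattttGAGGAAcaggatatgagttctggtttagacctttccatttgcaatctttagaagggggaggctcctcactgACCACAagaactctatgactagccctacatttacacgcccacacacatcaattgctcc
Cxcr2: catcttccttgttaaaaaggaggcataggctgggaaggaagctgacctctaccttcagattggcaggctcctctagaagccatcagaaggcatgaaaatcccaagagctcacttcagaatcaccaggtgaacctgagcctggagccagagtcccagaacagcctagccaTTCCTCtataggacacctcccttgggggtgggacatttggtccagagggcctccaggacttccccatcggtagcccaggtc
The Ccl9 window held a match to the loose AP-1 pattern, TGAATCA with A at the N, that began at position -53 from the start. The Ccr1 window held a PU.1 match at -129 and a RUNX match at -58, and the Cxcr2 window a PU.1 match at -81. None of the 3 motifs was in the Ccl6 window. Of the 56 members, 41 matched the RefSeq table by symbol, with 48 promoter entries, and the PU.1 core was in 16 of them, the RUNX motif in 9 and the AP-1 motif in 6. Of 32851 promoter entries of the same length in the table, 23.3%, 14.0% and 6.75% held these motifs. A match describes the letters of the window and is not evidence of binding.

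Ccl9, an inflammatory ligand of Ccr1, was the member with the highest counts. It was at 58.8, 111 and 60.8 CPM in Control, 229 and 469 CPM in NHD13, and 692, 596, 550 and 347 CPM in NHD13/MSI2. All NHD13 and NHD13/MSI2 libraries lay above all Control libraries, and the ranges of NHD13 and NHD13/MSI2 overlapped. Mean levels were 76.7 ± 29.3 CPM (SD, n = 3) in Control and 546 ± 146 CPM (SD, n = 4) in NHD13/MSI2, a log2 fold change of 2.83 ± 0.37 (SE), with an adjusted p of 0.000875. In NHD13 over Control the log2 fold change was 2.19 ± 0.40, with an adjusted p of 0.0211 that passed 0.05 and not 0.01. With the sex difference as a term, the NHD13/MSI2 value was 2.30, with an adjusted p of 0.0346, and the NHD13 value 1.66, with an adjusted p of 0.352.

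Ccl6, the neighbour of Ccl9 on chromosome 11 and like it a ligand of Ccr1, split the NHD13 pair. It was at 2.86, 2.61 and 1.20 CPM in Control, 18.1 and 2.52 CPM in NHD13, and 29.3, 33.6, 25.9 and 24.4 CPM in NHD13/MSI2. NHD13 replicate 2 lay within the Control range, whereas the 4 NHD13/MSI2 libraries lay above all other libraries. The log2 fold change of NHD13/MSI2 over Control was 3.67 ± 0.63 (SE; adjusted p = 0.0033). This call was lost when any 1 of the 3 Control libraries was left out, and with the sex term (adjusted p = 0.105), with log2 fold changes of 3.37 to 3.90 over the fits that left out 1 library.

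Ccl5, which recruits T cells and monocytes and is a ligand of Ccr1, rose by less but with little spread. Its levels were 5.19, 4.60 and 2.72 CPM in Control, 6.39 and 8.69 CPM in NHD13, and 17.9, 18.1, 16.7 and 12.8 CPM in NHD13/MSI2. The 3 groups did not overlap in any pair, with NHD13 in between. The log2 fold change was 1.97 ± 0.30 in NHD13/MSI2 over Control (adjusted p = 0.00169) and 0.85 ± 0.33 in NHD13 over Control (adjusted p = 0.278). In NHD13/MSI2 over NHD13 it was 1.12 ± 0.33, with an adjusted p of 0.0709 in edgeR and of 0.00689 by DESeq2. With the sex term the adjusted p of NHD13/MSI2 over Control was 0.0648.

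Ccl3 and Ccl4, neighbouring genes for inflammatory ligands, did not move alike. Ccl3 was at 7.03, 11.6 and 9.80 CPM in Control, 10.1 and 1.98 CPM in NHD13, and 33.3, 19.0, 18.9 and 15.2 CPM in NHD13/MSI2, so all NHD13/MSI2 libraries lay above the others. Ccl4 was at 16.3, 12.3 and 14.8 CPM in Control, 4.19 and 1.98 CPM in NHD13, and 11.6, 4.49, 5.34 and 2.01 CPM in NHD13/MSI2, so every Control library lay above the others. Neither passed the test. The log2 fold changes over Control were -0.64 in NHD13 (adjusted p = 0.794) and 1.19 in NHD13/MSI2 (adjusted p = 0.132) for Ccl3, and -2.23 (adjusted p = 0.142) and -1.30 (adjusted p = 0.108) for Ccl4. Between the NHD13 libraries, Ccl3 was higher in replicate 1, and without replicate 2 its value in NHD13 over Control was 0.087.

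On chromosome 11, Ccl5, Ccl9, Ccl6, Ccl3 and Ccl4 stand in this order in GENCODE M21, with a single other coding gene among them, between Ccl6 and Ccl3. The 3 at the Ccl5 end were those called in NHD13/MSI2 over Control, and Ccl4, at the other end, had the negative values given above. The other ligand block of the chromosome, Ccl2, Ccl7, Ccl11, Ccl12, Ccl8 and Ccl1, was low in all groups, with no library above 2.21 CPM for any of its genes. The receptor block of chromosome 9 holds Ccr9, Cxcr6, Xcr1, Ccr1, Ccr3 and Ccr2 in this order, of which Ccr1 alone was called.

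**Figure D3:**
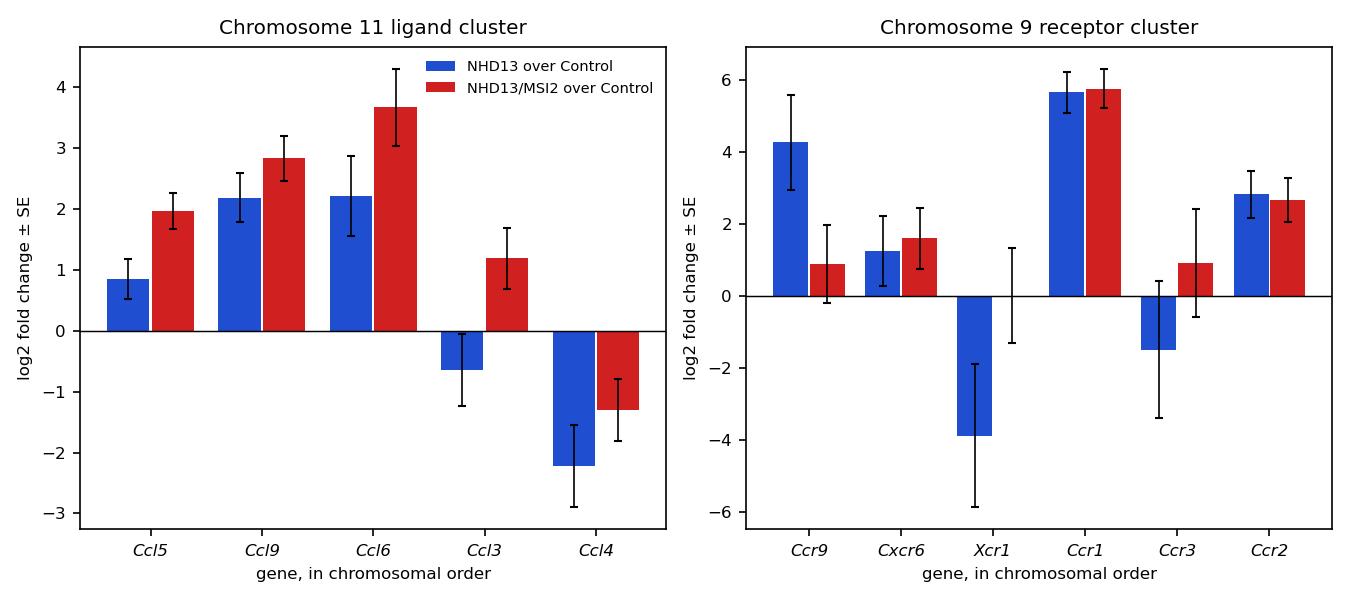
Log2 fold change over Control (bars, with standard errors) of NHD13 and NHD13/MSI2 for the ligand genes of one chromosome 11 block and the receptor genes of the chromosome 9 block, in chromosomal order. Ccl5, Ccl9 and Ccl6 are positive and Ccl4 negative in both comparisons, and Ccr1 at 5.66 and 5.76 is the tallest of its block.

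Ccr1, the receptor of Ccl3, Ccl5, Ccl6 and Ccl9 on myeloid cells, had the largest rise of any tested member in both comparisons with Control. It was at 1.19, 3.08 and 1.28 CPM in Control, 40.4 and 145 CPM in NHD13, and 108, 104, 85.7 and 101 CPM in NHD13/MSI2. All Control libraries lay far below the others, and the NHD13/MSI2 libraries lay between the NHD13 libraries. The log2 fold change was 5.66 ± 0.57 in NHD13 over Control (adjusted p = 0.00121) and 5.76 ± 0.55 in NHD13/MSI2 over Control (adjusted p = 0.000185). NHD13/MSI2 and NHD13 differed by 0.10, with a 95% interval of -0.95 to 1.16. With the sex term, Ccr1 was still called in NHD13/MSI2 over Control (log2 fold change 5.01, adjusted p = 0.00843) and not in NHD13 over Control (4.91, adjusted p = 0.0482). The NHD13 call was also lost without Control replicate 3 and when only the groups compared were fitted.

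Cxcr2, the receptor of the neutrophil-attracting Cxcl ligands, was highest in the libraries labelled NHD13/MSI2. Its levels were 3.03, 4.84 and 3.80 CPM in Control, 16.6 and 5.24 CPM in NHD13, and 49.3, 62.5, 54.9 and 34.5 CPM in NHD13/MSI2. The NHD13/MSI2 libraries lay above all others, and NHD13 replicate 2 was close to the Control range. The log2 fold change was 3.69 ± 0.43 in NHD13/MSI2 over Control (adjusted p = 0.000466, or 0.0274 with the sex term), 1.49 ± 0.44 in NHD13 over Control (adjusted p = 0.134) and 2.20 ± 0.46 in NHD13/MSI2 over NHD13 (adjusted p = 0.0191). The last value passed 0.05 and not 0.01, and it passed 0.01 by DESeq2 (adjusted p = 1.94e-05). Its adjusted p was 0.0337 with the sex term and 0.0662 with only the groups compared, which does not pass 0.05. It ranged from 1.64 to 3.29 when 1 library was left out. Its neighbour on chromosome 1, Cxcr1, a receptor of the same ligand family, was at 0.120 to 0.859 CPM in Control, 0.736 and 0.0494 CPM in NHD13 and 1.99 to 2.79 CPM in NHD13/MSI2, with an adjusted p of 0.0954 in NHD13/MSI2 over Control.

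The Cxcr2 ligands Cxcl1, Cxcl2, Cxcl3 and Cxcl5 had few reads. Cxcl1 had at most 2 counts in any library, Cxcl3 at most 3 counts and Cxcl5 at most 8 counts. Cxcl2 had 31 counts in Control replicate 1, 2 counts in each other Control library and 0 counts in every NHD13 and NHD13/MSI2 library. Its Control mean of 0.481 CPM was at least 3.03-fold that of NHD13/MSI2, taking 3 counts per library as the floor there, a bound that rests on Control replicate 1. Ppbp, another Cxcr2 ligand that the symbol rule does not include, was at 1.04 to 3.07 CPM in Control, 4.69 and 0.346 CPM in NHD13 and 0.155 to 1.80 CPM in NHD13/MSI2.

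Ccr2, which brings monocytes out of the marrow, was at 22.4, 9.02 and 7.92 CPM in Control, 70.4 and 116 CPM in NHD13, and 47.1, 46.3, 61.9 and 181 CPM in NHD13/MSI2. All NHD13 and NHD13/MSI2 libraries lay above the Control libraries. The log2 fold change was 2.83 ± 0.66 in NHD13 over Control (adjusted p = 0.0602) and 2.68 ± 0.60 in NHD13/MSI2 over Control (adjusted p = 0.0123). NHD13/MSI2 replicate 4 held the highest value by far, and without it the log2 fold changes were 2.82 (adjusted p = 0.00799) and 1.99 (adjusted p = 0.00637). The sex term gave 3.37 (adjusted p = 0.379) and 3.22 (adjusted p = 0.115). Its ligand Ccl2 was at 2.21, 0.142 and 0.160 CPM in Control and 0.506 and 0.247 CPM in NHD13, and the libraries labelled NHD13/MSI2 had 0, 1, 0 and 0 counts. Against a floor of 3 counts per library, Ccl2 was at least 5.27-fold lower in NHD13/MSI2 than in Control (adjusted p = 0.0245), a bound that rests on Control replicate 1, since the other Control libraries lay near the mean floor of NHD13/MSI2, 0.159 CPM. Without that library Ccl2 no longer passed the filter on low counts. Its adjusted p with the sex term was 0.439. Ccl7, the other Ccr2 ligand of the textbook pair, had 3 counts in Control replicate 1, 8 counts in NHD13 replicate 1 and 0 counts in the rest.

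Cxcr4, the retention receptor of stem cells, was nearly equal among the Control libraries (21.9, 21.8 and 24.3 CPM) and between the NHD13 libraries (44.4 and 44.2 CPM). In NHD13/MSI2 it was at 29.5, 38.7, 33.8 and 73.2 CPM, above Control in all 4 libraries. Its log2 fold change over Control was 0.97 ± 0.34 in NHD13 (adjusted p = 0.219) and 0.95 ± 0.29 in NHD13/MSI2 (adjusted p = 0.0485). NHD13/MSI2 and NHD13 differed by -0.02, with a 95% interval of -0.75 to 0.72. Without NHD13/MSI2 replicate 4, which was the highest, the values over Control were 0.96 (adjusted p = 0.0089) and 0.59 (adjusted p = 0.0121), and with the sex term they were 1.02 (adjusted p = 0.739) and 1.00 (adjusted p = 0.3). The ligand Cxcl12 was at 3.68, 3.75 and 0.640 CPM in Control, 7.96 and 4.84 CPM in NHD13 and 5.12, 4.49, 23.2 and 0 CPM in NHD13/MSI2, so that the 4 NHD13/MSI2 libraries spanned the whole range. The summed level of 10 stromal markers was 58.3 to 95.9 CPM in Control, 59.3 and 69.1 CPM in NHD13 and 12.7 to 41.7 CPM in NHD13/MSI2, and it was 18.3 CPM in replicate 3, which held the highest Cxcl12 level. The markers did not all move with this sum. Of the 6 tested, 1 was called lower and 0 higher in NHD13/MSI2 over Control, where 6.55% of all tested genes were called lower. The median log2 fold change of the 6 was 0.60. Their part in the Cxcl12 values was not tested.

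**Figure D4:**
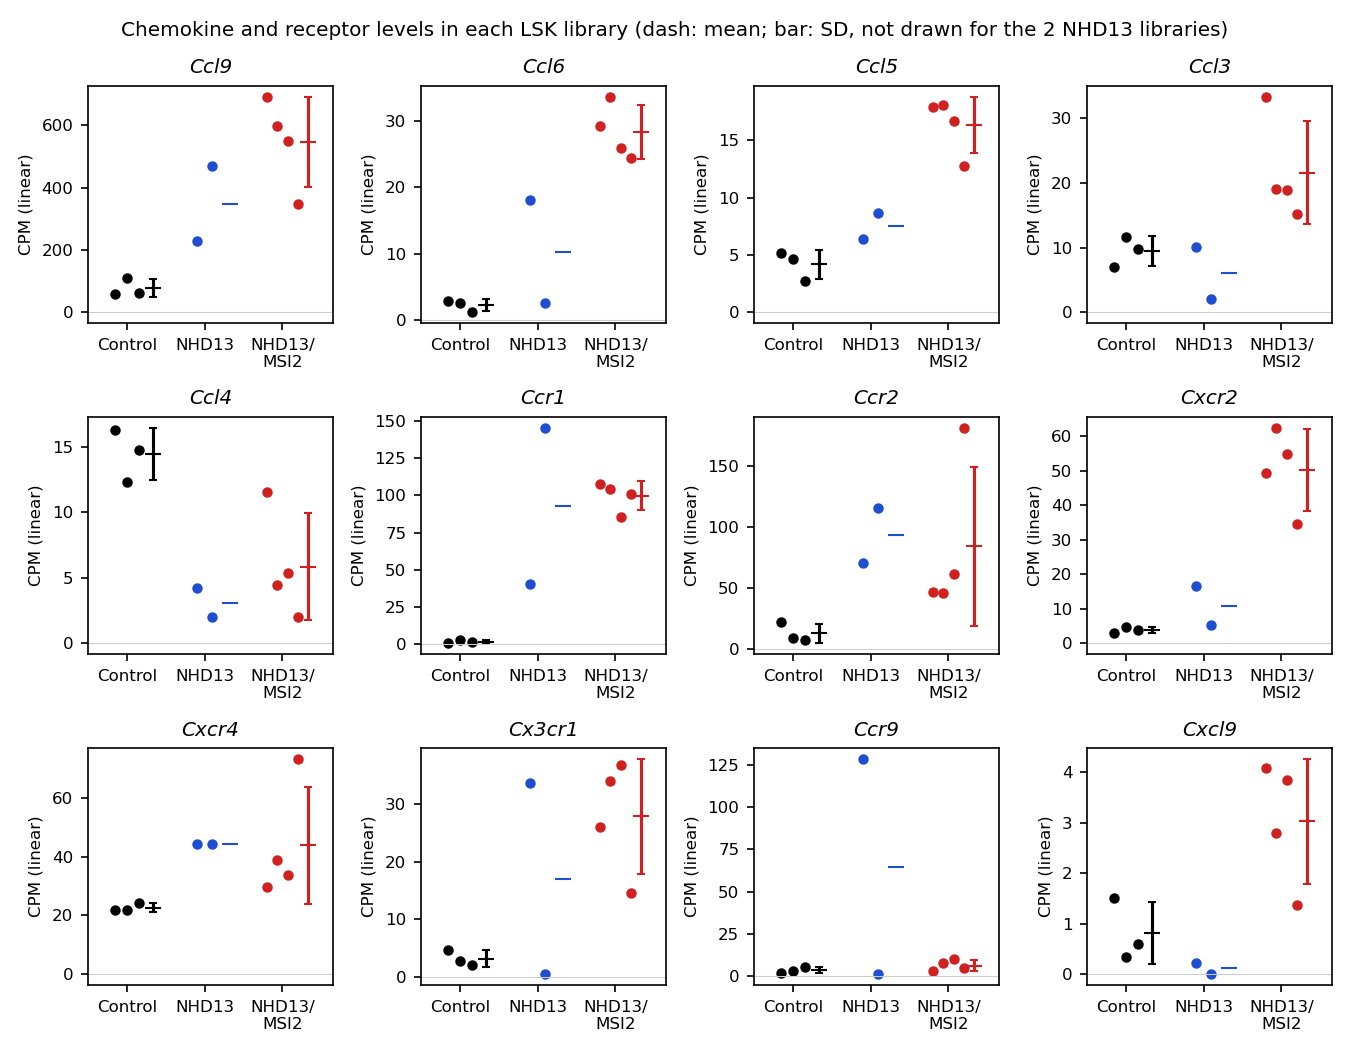
Level (CPM, linear axis) of 12 members in each library, with the mean as a dash and the SD as a bar for Control (n = 3) and NHD13/MSI2 (n = 4). For Ccl9, Ccr1 and Ccr2 every NHD13 and NHD13/MSI2 point is above the Control points, for Ccl6 and Cxcr2 the NHD13/MSI2 points are above all others, and for Ccr9 a single NHD13 library at 129 CPM is far above the rest.

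The NHD13 libraries differed from each other in several receptors. Ccr9, which directs cells to thymus and gut, was at 1.76, 2.99 and 5.32 CPM in Control, 129 and 1.04 CPM in NHD13, and 2.84, 7.58, 9.82 and 4.61 CPM in NHD13/MSI2. Without NHD13 replicate 1 its log2 fold change in NHD13 over Control turned from 4.27 to -1.68. Ccr9 exons overlap those of Slc6a20a on the other strand in GENCODE M21, and the counts are not stated to use strand, so reads of the overlap cannot be told apart. Cx3cr1, the fractalkine receptor of monocytes, was at 4.70, 2.75 and 1.96 CPM in Control, 33.8 and 0.395 CPM in NHD13, and 26.1, 34.2, 36.9 and 14.6 CPM in NHD13/MSI2. NHD13 replicate 2 lay below Control, and the 4 NHD13/MSI2 libraries lay above Control, with an adjusted p of 0.0611 in edgeR and of 0.00243 by DESeq2. Its ligand Cx3cl1 went the other way in level, at 1.84, 1.19 and 1.52 CPM in Control, 2.85 and 0.543 CPM in NHD13, and 0.362, 0.748, 0.136 and 0 CPM in NHD13/MSI2 (adjusted p = 0.14 in NHD13/MSI2 over Control).

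Ccr7, which guides cells to lymph nodes, was at 28.0 and 6.77 CPM in NHD13, 2.94 to 4.05 CPM in Control and 4.65 to 13.2 CPM in NHD13/MSI2. Cxcr5, the B cell follicle receptor, was at 5.24 and 0 CPM in NHD13 and at most 0.898 CPM elsewhere, and its exons overlap Bcl9l on the other strand. Of the 29 tested members, 4 differed between the NHD13 libraries by more than 2 on the log2(CPM + 1) scale (Ccl6, Ccr9, Cx3cr1 and Cxcr5), all higher in replicate 1, against 2.69% of all tested genes. Replicate 1 was also the library with the highest summed level of the 8 megakaryocyte markers, at 753 CPM against 16.9 to 268 CPM in the others, and the platelet chemokine Pf4, which the symbol rule does not include, was 290 CPM in that library, against 1.62 to 27.0 CPM elsewhere. Their part in these receptor values was not tested.

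**Figure D5:**
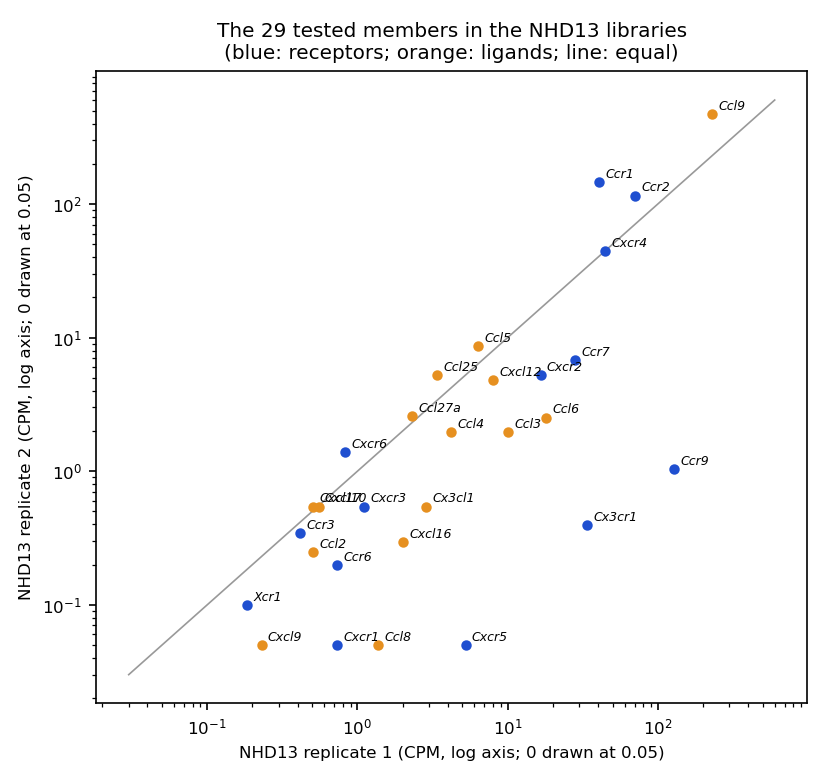
Level of the 29 tested members in NHD13 replicate 1 (horizontal) against NHD13 replicate 2 (vertical), in CPM on log axes, with 0 drawn at 0.05 and the line of equal values. Ccr9, at 129 and 1.04 CPM, and Cx3cr1, at 33.8 and 0.395 CPM, are far below the line, while Ccr1, at 40.4 and 145 CPM, is above it.

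Among the interferon-inducible Cxcr3 ligands, Cxcl9 had 5 and 0 counts in NHD13, and was at 1.51, 0.332 and 0.600 CPM in Control and 4.09, 2.79, 3.85 and 1.36 CPM in NHD13/MSI2. The NHD13/MSI2 libraries lay above both NHD13 libraries and overlapped Control. The log2 fold change of NHD13/MSI2 over NHD13 was 4.62 ± 1.19, with an adjusted p of 0.0423, which passed 0.05 and not 0.01, and of 0.000207 by DESeq2. It ranged from 3.72 to 9.0 when 1 library was left out, and with the sex term its adjusted p was 0.0588. Cxcl10 was at 1.19 to 2.24 CPM in Control, 0.552 and 0.543 CPM in NHD13 and 0 to 3.47 CPM in NHD13/MSI2, and its exons overlap Art3 on the other strand. Their receptor Cxcr3 was at 0.195 to 1.45 CPM in all 9 libraries, with no difference past the test.

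Xcr1, the receptor of Xcl1 on cross-presenting dendritic cells, was at 5.81, 0.190 and 0.480 CPM in Control, 0.184 and 0.0988 CPM in NHD13, and 2.95, 4.44, 1.36 and 0 CPM in NHD13/MSI2, and Xcl1 had at most 3 counts in any library. The remaining tested members were Ccl8, Ccl25, Ccl27a, Cxcl16 and Cxcl17 among the ligands and Ccr3, Ccr6 and Cxcr6 among the receptors. None of them passed an adjusted p of 0.05 in edgeR in any of the 3 comparisons, the nearest being Ccr6 in NHD13/MSI2 over Control (adjusted p = 0.0524 in edgeR and 0.0058 by DESeq2), with 7, 0 and 0 counts in Control and 9 to 74 counts in NHD13/MSI2. The exons of Ccl25 overlap Elavl1, those of Ccl27a overlap Il11ra1 and those of Cxcl16 overlap Zmynd15, each on the other strand. Of the 27 members that were not tested, Ccl22 had the most counts in a library, 60 in NHD13/MSI2 replicate 1 and 10 in replicate 3, with at most 2 counts in the other libraries.

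Genes that act with the receptors were called at a share near that of all genes. Of 39 tested genes for receptor signalling and cell movement, 2 rose and 2 fell in NHD13/MSI2 over Control, where 11% of all tested genes were called. Rgs1, which shortens G protein signals of chemokine receptors, was at 247, 109 and 107 CPM in Control, 17.7 and 10.03 CPM in NHD13, and 1.14, 0.848, 1.49 and 0.454 CPM in NHD13/MSI2. The 3 groups did not overlap, and Rgs1 fell in all 3 comparisons, with log2 fold changes of -3.48 in NHD13 over Control (adjusted p = 0.00795), -7.26 in NHD13/MSI2 over Control (adjusted p = 2.67e-05) and -3.78 in NHD13/MSI2 over NHD13 (adjusted p = 0.00211). Rgs2, of the same family, fell by 2.77 in NHD13/MSI2 over Control (adjusted p = 0.000423). Rgs10 rose by 2.14 (adjusted p = 0.00288), and Adrbk1, a kinase that desensitises G protein-coupled receptors, rose by 1.02 (adjusted p = 0.000875). With the sex term, Rgs1 was still called in NHD13/MSI2 over Control (adjusted p = 0.00071) and over NHD13 (adjusted p = 0.00517) and not in NHD13 over Control (adjusted p = 0.093), and the calls of Rgs2 (adjusted p = 0.0106), Rgs10 (adjusted p = 0.0982) and Adrbk1 (adjusted p = 0.0368) were lost.

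Of 23 tested genes for inducers of inflammatory chemokines, 1 rose and 2 fell in NHD13/MSI2 over Control, and 1 fell in NHD13 over Control, where 11% and 1.03% of all tested genes were called. The interleukin-1 receptor Il1r1 was at 60.1, 90.3 and 82.5 CPM in Control, 3.27 and 4.79 CPM in NHD13, and 12.6, 5.68, 10.5 and 15.6 CPM in NHD13/MSI2. It fell by 4.27 in NHD13 over Control (adjusted p = 0.00166) and by 2.81 in NHD13/MSI2 over Control (adjusted p = 0.000447). Tlr4, the receptor of bacterial lipopolysaccharide, fell by 2.23 in NHD13/MSI2 over Control (adjusted p = 0.00101), and Tlr9, a sensor of DNA, was called higher there (adjusted p = 0.00994) at 0.672 to 1.23 CPM against 0 to 0.0818 CPM in Control. Of 10 tested genes for other chemokine-like proteins and atypical receptors, Cmtm3 alone was called. It fell by 1.25 in NHD13/MSI2 over Control (adjusted p = 0.00116) and by 1.10 in NHD13/MSI2 over NHD13 (adjusted p = 0.00863), where 11% and 3.17% of all tested genes were called. With the sex term, Il1r1 was still called in NHD13/MSI2 over Control (adjusted p = 0.00596) and not in NHD13 over Control (adjusted p = 0.0147). The calls of Tlr4 (adjusted p = 0.0255), Tlr9 (adjusted p = 0.0896) and Cmtm3 (adjusted p = 0.0328 over Control and 0.0193 over NHD13) were lost with it.

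Marker lists of mature cells were also read, and they did not all move with the members. The summed level of 12 monocyte and macrophage markers was 284 to 399 CPM in Control, 993 and 340 CPM in NHD13 and 948 to 1651 CPM in NHD13/MSI2, and 4 of the 12 (Csf1r, Cd68, Mrc1 and Ms4a6c) rose in NHD13/MSI2 over Control, against 4.49% of all tested genes. When sex was a term, Csf1r (adjusted p = 0.00163), the receptor of a macrophage growth factor, and Cd68 (adjusted p = 0.00319) were still called, and Mrc1 (adjusted p = 0.174) and Ms4a6c (adjusted p = 0.063) were not. NHD13 replicate 2, which had the highest Ccr1 level of all libraries at 145 CPM, had a summed marker level of 340 CPM, within the Control range. The sum does not show every marker. In NHD13 over Control, where Ccr1 was called, 2 of these 12 markers were also called higher and 0 were called lower. The median change of the 12 there was 1.10 on the log2 scale, and 1.03% of all tested genes were called. With the sex term the lowest adjusted p of the 12 in NHD13 over Control was 0.0265 (Csf1r), so neither call was kept. C1qa, a macrophage complement gene, was at 0 CPM in NHD13/MSI2 replicate 4 and at most 3.14 CPM in any library. The summed level of the 11 neutrophil markers found was 1097, 2688 and 1156 CPM in Control, 627 and 252 CPM in NHD13 and 550 to 909 CPM in NHD13/MSI2. Cxcr2 was thus higher and the sum of these markers lower in NHD13/MSI2 than in Control. Of the 10 tested, 0 were called in NHD13/MSI2 over Control, with a median log2 fold change of -1.69. In NHD13/MSI2 over NHD13 1 of the 10 was called higher and 0 lower, with a median of 0.34, where 3.17% of all tested genes were called. The summed level of 9 B cell markers was 49.6 to 67.8 CPM in Control, 142 and 126 CPM in NHD13 and 269 to 452 CPM in NHD13/MSI2. In NHD13/MSI2 over Control 3 of these 9 were called higher and 0 lower, and their median log2 fold change was 0.14. Of all tested genes, 4.49% were called higher there. The summed level of 12 T and NK cell markers was 232 to 412 CPM in Control, 269 and 253 CPM in NHD13 and 108 to 150 CPM in NHD13/MSI2. Of the 8 tested, Cd5 (log2 fold change 4.90) and Klrb1c (2.73) rose and Nkg7 (-3.22) fell in NHD13/MSI2 over Control. With the sex term, Cd5 (adjusted p = 0.00263) and Nkg7 (adjusted p = 0.00071) were still called there and Klrb1c (adjusted p = 0.0163) was not. Of all tested genes, 11% were called there without the term. The median log2 fold change of these 8 was 0.96, while the summed level was lower. The defining T cell genes Cd3d, Cd3e and Cd3g were at 0.698 CPM or less in every library. The part of these markers in the member values was not tested, and in these bulk samples more cells of a type and more RNA per cell cannot be told apart.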

How the data were processed

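RNA-seq counts of LSKs were taken from 9 libraries in 3 groups assigned from the sample titles. Counts were whole numbers for each gene symbol as deposited, with no normalization. STAR, HTSeq, DESeq and the build mm9 are listed in the submitters' processing notes, with no versions. Of 24073 rows, 2 had no name. Names after the March genes stood 2 rows too high and 11942 of them were moved down: Xist then held 21712, 49 and 21664 counts in the Control libraries, against 0 or near 600 counts at other shifts. The 13 rows of uncertain name, 0.0253% to 0.0323% of a library, were left out.

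Counts were analysed in R 4.3.3 with edgeR 4.0.16 (filterByExpr by group, TMM factors, quasi-likelihood test with all 9 libraries, 13355 genes tested, Benjamini-Hochberg adjustment over all of them, threshold 0.01). CPM use TMM-scaled totals, and 1 count floor of 3 counts was used, which covers counting error only. Standard errors and 95% intervals come from the same fit. DESeq2 1.42.0, RLE factors, no filter or a mean of at least 50 counts, a threshold of 0.05, a replicate block, fits of only the groups compared, a sex term, names as deposited and leaving out each library were the alternatives. Scripts were tested on simulated data. Exon lengths, gene order and overlaps are from GENCODE M21. No replicate pair agreed within sampling noise (chi-square per gene of 18.7 to 426).

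Members named with all values passed an adjusted p of 0.05 in a comparison, were among the 10 of highest mean CPM or were part of a textbook ligand and receptor pair, and Ccr7, Cxcr5, Cxcr1, Cxcl10, Cxcr3, Ccr6 and Ccl22 were added after their values were seen. Members and lists were chosen with earlier results of these data known. Ly6g was not used here, and 1 row that the symbol rule matches and 1 gene of the LSK list are not reported here.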

Additional observations from a re-analysis of the deposited data

Results flagged for a closer look

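In the 4 libraries labelled NHD13/MSI2, 5 of the 29 tested members had 1 library far from the other 3 (17.2%), where 15.8% of all 13355 tested genes did so and chance gives about 1 in 20 groups. The share of the members is thus near that of all genes. Replicate 2 stood apart for Ccr3, at 7.28 CPM against 0 to 0.672 CPM, for Cxcr6, at 3.44 CPM against 0.679 to 0.779 CPM, and for Ccl2, at 0.0499 CPM (1 count) against 0, which is within the floor of 3 counts, so no difference was detectable at this depth. Replicate 3 stood apart for Ccr7, at 13.2 CPM against 4.65 to 5.45 CPM. Replicate 4 stood apart for Ccr2, at 181 CPM against 46.3 to 61.9 CPM.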

How the results depend on the processing

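Members called numbered 0 in NHD13/MSI2 over NHD13, 5 in NHD13/MSI2 over Control and 1 in NHD13 over Control, the order kept below. They were 3, 9 and 3 with DESeq2 and 2, 8 and 2 at an adjusted p of 0.05. With the sex term they were 0, 1 and 0, and with only the groups compared the last was 0. Leaving out 1 Control or NHD13/MSI2 library gave 0, 4 to 6 and 0 to 4. In these fits 1.16% to 4.86%, 4.9% to 15.5% and 0.288% to 1.89% of all tested genes were called. NHD13 over Control gave 4 calls without NHD13/MSI2 replicate 4, where 1.89% of all tested genes were called. It gave 0 calls without Control replicate 3, where 0.288% were, against 1.03% in the main fit. Over all genes, 423, 1474 and 138 were called, against 1286, 2589 and 594 with DESeq2, 163, 273 and 8 with the sex term, and 30, 1602 and 83 with only the groups compared. With the replicate block the members called were 0, 5 and 1 and the genes called 203, 1407 and 101. Deviations from the group means correlated at -0.07 to 0.19 for same-numbered libraries and at -0.19 to 0.15 for others. The deviations of the 2 NHD13 libraries mirror each other, so these values cannot settle whether the numbers pair the samples. Of 847 recomputed log2 fold changes of named members, 27 changed sign, none of them for a called value. In NHD13/MSI2 over NHD13, Cxcr4 was 0.0055 with DESeq2, 0.0052 with RLE factors and -0.36 to 0.15 leaving out 1 library, and leaving out 1 library gave -0.52 to 1.34 for Ccr1, -4.33 to 2.60 for Ccr9, -0.83 to 0.30 for Ccr2, -0.23 to 6.15 for Cx3cr1 and -0.99 to 0.81 for Cxcl12. In NHD13/MSI2 over Control, Xcr1 was -0.0036 with DESeq2, -0.0013 with RLE factors and -0.57 to 2.68 leaving out 1 library. In NHD13 over Control, Cx3cl1 was -0.29 with the replicate block and -1.47 to 0.90 leaving out 1 library, Ccl2 was 1.37 with the sex term, Xcr1 was 0.80 with names as deposited, and leaving out 1 library gave -1.68 to 5.25 for Ccr9, -2.97 to 3.41 for Cx3cr1 and -2.25 to 0.087 for Ccl3. The causes were not tested. Where 1 NHD13 library was left it was assumed to vary like the other groups. Calls from those fits are therefore not counted above, and the 0 in NHD13/MSI2 over NHD13 does not cover them. The sex term leaves Control replicate 2 alone to set the Control level, and levels under the floor of 3 counts, 0.12 to 0.195 CPM, were not detectable at this depth.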
